A study of Mus musculus with 13 samples.

Results

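Fibroblast growth factor 21 (FGF21) and the genes of its receptor system were followed liver by liver in mice with and without Sel1L in hepatocytes. The set holds 6 genes: Fgf21 itself, Klb, which encodes the co-receptor beta-klotho, and the receptor genes Fgfr1, Fgfr2, Fgfr3 and Fgfr4. They were picked by name out of 18820 genes that had at least 1 array feature with exactly 1 gene symbol, and each of the 6 had 1 such feature. The features were 10563344 for Fgf21, 10522127 for Klb, 10570982 for Fgfr1, 10568436 for Fgfr2, 10521111 for Fgfr3 and 10405380 for Fgfr4.

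RNA from 13 livers had been hybridised to whole-transcript Affymetrix arrays, 1 array per liver, and each value below is a log2 expression value on the authors' RMA scale. Sel1L holds the ubiquitin ligase Hrd1 in its complex for the degradation of proteins from the endoplasmic reticulum, and the title of the series links this pathway to FGF21 through the transcription factor CREBH. The 4 groups were wild-type liver at 3 weeks of age (n = 3), hepatocyte-specific Sel1L-deficient liver at 3 weeks (n = 4), wild-type liver at 9 weeks (n = 3) and hepatocyte-specific Sel1L-deficient liver at 9 weeks (n = 3). The comparisons ask what loss of Sel1L does to these genes at each age and whether that effect differs between ages. They also ask how 9 weeks differs from 3 weeks in each genotype. All mice were on the C57BL/6J background and went without food for 5 to 6 hours on the morning of collection. In the Sel1L-deficient mice, Cre recombinase under the albumin promoter removes a loxP-flanked exon 6 of Sel1l. Whether all liver cells other than hepatocytes keep the gene cannot be read from whole-liver RNA. The labels do not say whether the wild-type mice carried the loxP-flanked allele or Cre, nor their sex.

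FGF21 is a hormone that the liver releases on fasting, on a low-protein diet and under stress of the endoplasmic reticulum or of mitochondria. It acts by binding beta-klotho, which holds it against an FGF receptor tyrosine kinase, and the receptor then signals through adaptor proteins and the RAS-ERK kinase cascade. FGFR1 is the main partner of beta-klotho for FGF21 in fat and brain, while FGFR4 with beta-klotho is the hepatocyte receptor for the related gut hormone FGF15, which lowers bile acid synthesis. Transcription of Fgf21 in liver is driven by PPARα and CREBH on fasting and by ATF4 in the stress response.

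The promoter of Fgf21 is shown because several of these regulators act through it. The sequence is the 250 bases before the start of the gene (RefSeq, GRCm38.p6, chr7:45615491-45615740, minus strand), written 5′ to 3′. Capitals mark 4 matches. The leftmost is to TGATGNAA, the C/EBP-ATF response element, which ATF4 binds together with C/EBP proteins, here on the reverse strand. The next is to TGACG on the reverse strand, the core of cAMP response elements. It is followed by an E-box with the letters CACGTG. The rightmost is a TATA box with the letters TATAAA.
Fgf21: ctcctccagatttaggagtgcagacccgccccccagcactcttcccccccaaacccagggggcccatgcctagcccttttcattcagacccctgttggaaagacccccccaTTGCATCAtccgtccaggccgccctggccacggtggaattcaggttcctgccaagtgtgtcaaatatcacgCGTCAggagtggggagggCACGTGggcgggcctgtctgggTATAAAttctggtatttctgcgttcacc
The 4 matches begin 139, 68, 50 and 28 bases before the start, and no 2 of them overlap. Searched on both strands over 32851 windows of the same length, the C/EBP-ATF element was found in 3.45%, the cAMP element core in 17.8%, the E-box in 6.02% and the TATA box in 12.4%. The endoplasmic reticulum stress response element (0.113% of windows) and the direct repeat of the type that PPARα binds (0.0335%) had no match in the window of Fgf21 or of another member. For both, perfect matches alone were sought. Looser forms and bases farther upstream were not searched, so the absence does not show that such sites are missing. Windows of 5 of the 6 members were in the table, all but that of Fgfr1. Among the other members the sole match to any of these motifs was TGACG in Klb, 146 bases before its start.

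The ATF4-type element was also looked for in 16 genes of the stress hormone and ATF4 type, whose levels are set beside Fgf21 further on. It was present in the windows of 6 of the 16, shown here as 24 bases each (GRCm38.p6) with the match in capitals and with that of Fgf21 first.
Fgf21 (chr7:45615614-45615637, minus strand): cccccccaTTGCATCAtccgtcca
Nupr1 (chr7:126625565-126625588, minus strand): gggccagaTTGCATCAgacagggc
Vldlr (chr19:27216812-27216835, plus strand): agcaatagTTGCATCAgcgctcct
Atf3 (chr1:191183428-191183451, minus strand): tctcgcacTTGCATCAccaagtcc
Chac1 (chr2:119351041-119351064, plus strand): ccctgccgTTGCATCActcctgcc
Asns (chr6:7693217-7693240, minus strand): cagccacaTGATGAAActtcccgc
Slc7a11 (chr3:50443664-50443687, minus strand): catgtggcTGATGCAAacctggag
Fgf21, Nupr1, Vldlr, Atf3 and Chac1 share the letters TTGCATCA, and Asns and Slc7a11 carry the element on the gene's own strand. Slc7a11 has another match outside the bases shown. A match describes the letters only and says nothing of binding in these livers.

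The labels were first checked against the targeted gene. Sel1l lay between 8.70 and 8.94 in the 6 wild-type livers and between 7.10 and 8.42 in the 7 Sel1L-deficient livers, without overlap at either age. Its difference was -1.21 ± 0.26 at 3 weeks (SE, adjusted p = 0.391) and -1.02 ± 0.28 at 9 weeks (SE, adjusted p = 0.108), and which exons its feature covers is not given in the sources used here. Alb averaged 13.3 over the livers, and all 9 measured hepatocyte markers lay above the array medians of 3.72 to 3.81. Of the adipocyte markers 0 of 6, and of the pancreatic acinar markers 1 of 7, lay above them. Xist stayed at or below 2.64 and the Y-linked Eif2s3y, Kdm5d and Uty at or above 5.04 in all 13 livers. The array descriptions carry a code of 5 or 7, whose meaning is not stated and which cuts across the groups, and values within each array code are given where they bear on a result.

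At 9 weeks every Sel1L-deficient (knockout) liver had far more Fgf21 than the highest wild-type liver, while at 3 weeks the knockout livers fell on both sides of wild type. Wild-type Fgf21 at 3 weeks read 7.21, 7.19 and 7.09. In the 4 knockout livers of that age it read 7.96, 9.30, 6.14 and 5.96. Replicates 1 and 2 were thus above all wild-type livers, at 1.74 and 4.39 times the wild-type mean, and replicates 3 and 4 were below all of them, at 0.491 and 0.435 times that mean. Wild-type Fgf21 at 9 weeks read 5.32, 5.90 and 6.59, and knockout Fgf21 read 8.75, 8.92 and 9.02. Each Sel1L-deficient liver of that age was 7.02 to 8.47 times the wild-type mean.

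**Figure D1:**
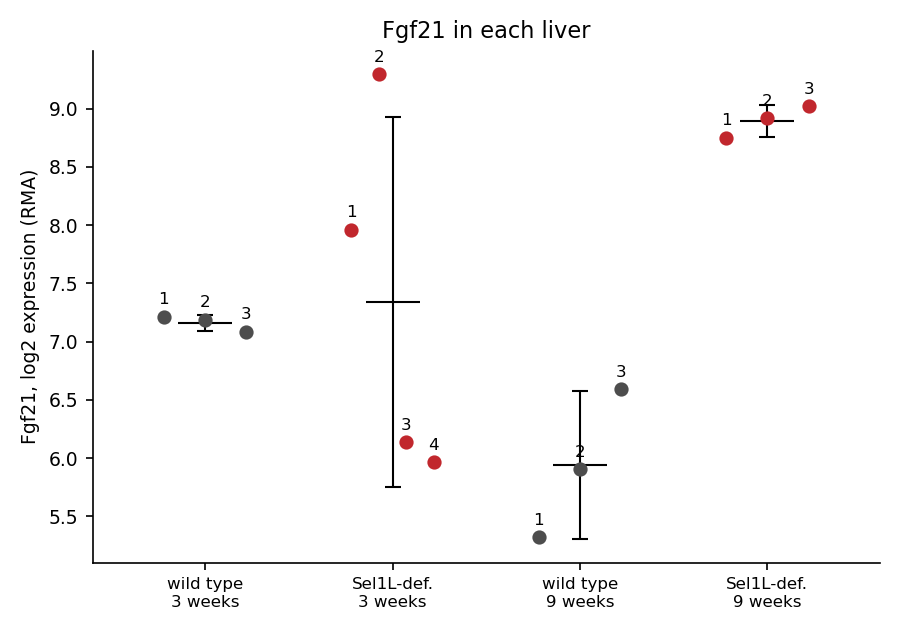
Fgf21 in each of the 13 livers (log2 expression, RMA), by genotype and age, with wild type in grey and Sel1L-deficient in red; points are livers numbered by replicate, horizontal lines are group means and whiskers are ± 1 SD. The 3 Sel1L-deficient livers at 9 weeks sit between 8.75 and 9.02, above all 3 wild-type livers of that age, whereas at 3 weeks 2 of the 4 Sel1L-deficient livers lie above and 2 below the wild-type livers.

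The mean difference in Fgf21 at 9 weeks was 2.96 ± 0.71 (SE; 7.77-fold, 95% interval 1.40 to 4.52), and it missed the threshold of 0.05 after Benjamini-Hochberg adjustment over all 35556 features (limma, adjusted p = 0.0695). An exact two-sided permutation test gave p = 0.1, the smallest value that 3 livers against 3 allow. The difference was 2.98 within array code 5 and 2.96 within code 7, where code 5 held 1 wild-type and code 7 held 1 Sel1L-deficient liver of this age. It passed the threshold when features with 1 gene symbol alone were tested (adjusted p = 0.0309), when features below the array median were left out (adjusted p = 0.0418) and under array weights (3.05, adjusted p = 0.0432). These were 3 of 10 alternative settings, over which the limma adjusted p reached 0.124. Of 13 fits with 1 liver left out it was called in 1, without replicate 2 of the 3-week knockout livers (adjusted p = 0.0260), and adjusted p reached 0.212 in the others.

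The corresponding difference at 3 weeks was 0.18 ± 0.66 (SE; 95% interval -1.28 to 1.63, limma adjusted p = 0.970). The exact permutation test gave p = 1, where the smallest possible value was 0.0571. Without replicate 2 of the Sel1L-deficient livers the difference was -0.48, and without replicate 1 it was -0.03. Within array code 5 it was 0.48 and within code 7 it was -0.14, where code 7 held 1 wild-type liver. Each code held 1 of the high and 1 of the low Sel1L-deficient livers.

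The spread of Fgf21 within groups was very uneven. The SD was 0.067 in wild type, against 1.59 in knockout liver at 3 weeks, and 0.64 and 0.14 at 9 weeks. The 4 Sel1L-deficient livers at 3 weeks held 89.8% of the sum of squares of Fgf21 within groups, which enters the standard error of every comparison. By group mean the order of Fgf21 was Sel1L-deficient at 9 weeks (8.90), Sel1L-deficient at 3 weeks (7.34), wild type at 3 weeks (7.16) and wild type at 9 weeks (5.94). The 3-week knockout group spans from within the 9-week wild-type range to above the 9-week Sel1L-deficient range, so its place in that order is not distinct from any neighbour. The other 3 groups do not overlap with each other.

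The change of the Fgf21 difference between ages was tested directly. It came to 2.78 ± 0.97 (SE; 95% interval 0.65 to 4.92) with an unadjusted p of 0.0152, and was not called over all features (limma, adjusted p = 0.408). With age, wild-type Fgf21 differed by -1.22 ± 0.71 (SE; adjusted p = 0.513), and the 3-week and 9-week wild-type livers did not overlap. In Sel1L-deficient liver the age difference was 1.56 ± 0.66 (SE; adjusted p = 0.460), and the ages overlapped because replicate 2 at 3 weeks exceeded all 9-week livers. These age differences share their livers with the genotype differences and are no separate evidence.

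Klb, the co-receptor that makes a cell responsive to FGF21, showed no called difference by genotype. At 3 weeks wild-type Klb read 7.72, 7.85 and 7.98 and knockout Klb 7.80, 7.67, 8.03 and 7.76. At 9 weeks the wild-type values were 7.28, 7.45 and 6.99 and the Sel1L-deficient values 7.72, 7.40 and 7.68. Sel1L-deficient replicate 2 at 9 weeks thus lay inside the wild-type range, and the other two lay above it. The differences were -0.03 ± 0.13 at 3 weeks (SE; 95% interval -0.32 to 0.26, adjusted p = 0.973) and 0.36 ± 0.14 at 9 weeks (SE; 1.28-fold, 95% interval 0.05 to 0.66, adjusted p = 0.270).

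The largest shift of Klb was with age in wild type, where all 3 livers at 9 weeks were below all 3 at 3 weeks. The difference was -0.60 ± 0.14 (SE; 0.658-fold) and narrowly missed the threshold (limma, adjusted p = 0.0554). It passed among features with 1 gene symbol (adjusted p = 0.0276), among features above the array median (adjusted p = 0.0354) and with a trended, robust prior variance (adjusted p = 0.0483). These were 3 of 10 alternative settings, over which the limma adjusted p reached 0.184. With 1 liver left out the difference was called in 0 of 13 fits (adjusted p 0.0540 to 0.171). In Sel1L-deficient liver the age difference was -0.22 ± 0.13 (SE; adjusted p = 0.649), and the ages overlapped. By group mean Klb ran from wild type at 3 weeks (7.85) and Sel1L-deficient at 3 weeks (7.82), which overlapped, through Sel1L-deficient at 9 weeks to wild type at 9 weeks (7.24), each overlapping its neighbour.

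Fgfr1, the main FGF21 receptor of fat and brain, was lower in Sel1L-deficient liver at 9 weeks, the only genotype difference among the 6 genes below the adjusted threshold, though smaller than that of Fgf21, and this call was lost with the 2 compared groups fitted alone (adjusted p = 0.172). At 9 weeks wild-type Fgfr1 read 5.63, 5.49 and 5.54 and knockout Fgfr1 5.14, 5.17 and 5.15, so the groups lay well apart and the knockout livers were nearly equal. At 3 weeks the wild-type livers read 5.23, 5.19 and 5.23 and the Sel1L-deficient livers 5.23, 5.13, 5.21 and 5.13, close to the 9-week Sel1L-deficient level. The difference at 9 weeks was -0.40 ± 0.07 (SE; 0.758-fold, 95% interval -0.55 to -0.25, limma adjusted p = 0.0196), and at 3 weeks it was -0.05 ± 0.06 (SE; adjusted p = 0.899). The change of this difference between ages was -0.35 ± 0.09 (SE; unadjusted p = 0.00250, adjusted p = 0.280).

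In wild type Fgfr1 rose with age, by 0.33 ± 0.07 (SE; 1.26-fold, limma adjusted p = 0.0302), whereas in Sel1L-deficient liver the age difference was -0.02 ± 0.06 (SE; adjusted p = 0.964). The age call was kept in 7 of 13 fits with 1 liver left out and lost without any of the 6 wild-type livers (adjusted p = 0.0580 to 0.0922). It was also lost with the array code as a block (0.0573), with a trended, robust prior variance (0.0724) and with the compared groups alone (0.185). Both calls on Fgfr1 use the same 3 wild-type livers at 9 weeks, the highest of all 13. Leaving out 1 liver at a time, the genotype call was kept in 8 of 13 fits. It was lost without wild-type replicate 1, 2 or 3 at 9 weeks (adjusted p = 0.0772, 0.0533 and 0.0508) and without Sel1L-deficient replicate 2 or 3 (adjusted p = 0.0846 and 0.0896), with differences between -0.43 and -0.36 throughout. Within array codes 5 and 7 the 9-week difference was -0.34 and -0.42.

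For Fgfr2, Fgfr3 and Fgfr4 all knockout livers at 9 weeks were below all wild-type livers, and none of these genes was called. Fgfr2, a receptor best known from epithelia, stood at 6.57, 6.91 and 6.73 in wild-type and at 6.16, 5.86 and 6.36 in knockout livers of that age. Its difference was -0.61 ± 0.17 (SE; 0.655-fold, 95% interval -0.97 to -0.25, adjusted p = 0.108). At 3 weeks wild type stood at 6.44, 6.85 and 6.21 and the knockout at 6.27, 6.22, 6.12 and 6.27, with a difference of -0.28 ± 0.16 (SE; adjusted p = 0.733). The 3-week groups overlapped, since wild-type replicate 3 was below 3 of the 4 Sel1L-deficient livers.

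Fgfr3, the receptor that restrains growth of cartilage, was the most variable receptor gene. Its wild-type values at 3 weeks were 6.27, 5.61 and 4.98, against 5.57, 5.44, 5.73 and 6.14 in Sel1L-deficient liver. The wild-type livers at this age span more than the other groups do for this gene and enclose every Sel1L-deficient value (difference 0.10 ± 0.27, SE; adjusted p = 0.954). At 9 weeks wild type stood at 6.23, 6.16 and 5.84 and Sel1L-deficient liver at 5.78, 5.40 and 5.39. The groups were separated by a narrow gap, with a difference of -0.55 ± 0.28 (SE; 0.682-fold, 95% interval -1.18 to 0.07, adjusted p = 0.427).

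Fgfr4, the FGF receptor through which FGF15 acts on hepatocytes, was level across 3 of the 4 groups. Its 3-week values were 6.94, 6.93 and 6.60 in wild type, against 6.75, 6.96, 7.02 and 6.96 in knockout liver (difference 0.10 ± 0.18, SE; adjusted p = 0.927). At 9 weeks wild type stood at 6.75, 6.96 and 6.79 and Sel1L-deficient liver at 6.67, 5.79 and 6.18. Replicate 1 of the 9-week Sel1L-deficient livers lay just under wild type and replicate 2 was 0.484 times the wild-type mean. The difference was -0.62 ± 0.19 (SE; 0.651-fold, 95% interval -1.03 to -0.21, adjusted p = 0.146), and it was -0.53 within array code 5 and -0.98 within code 7. Without that replicate 1 it was -0.85 and was called (adjusted p = 0.0139), the sole call in 13 fits with 1 liver left out. Over those fits it ran from -0.85 to -0.40, with adjusted p up to 0.404. None of 10 other settings gave a call (adjusted p 0.0536 to 0.356). The 9-week Sel1L-deficient livers were also below all 4 Sel1L-deficient livers of 3 weeks (-0.71 ± 0.18, SE; adjusted p = 0.165). That age difference was called without the same replicate 1 (-0.94, adjusted p = 0.0250). It was again the sole call in 13 such fits (adjusted p up to 0.460), and the other settings gave none (0.0570 to 0.390).

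**Figure D2:**
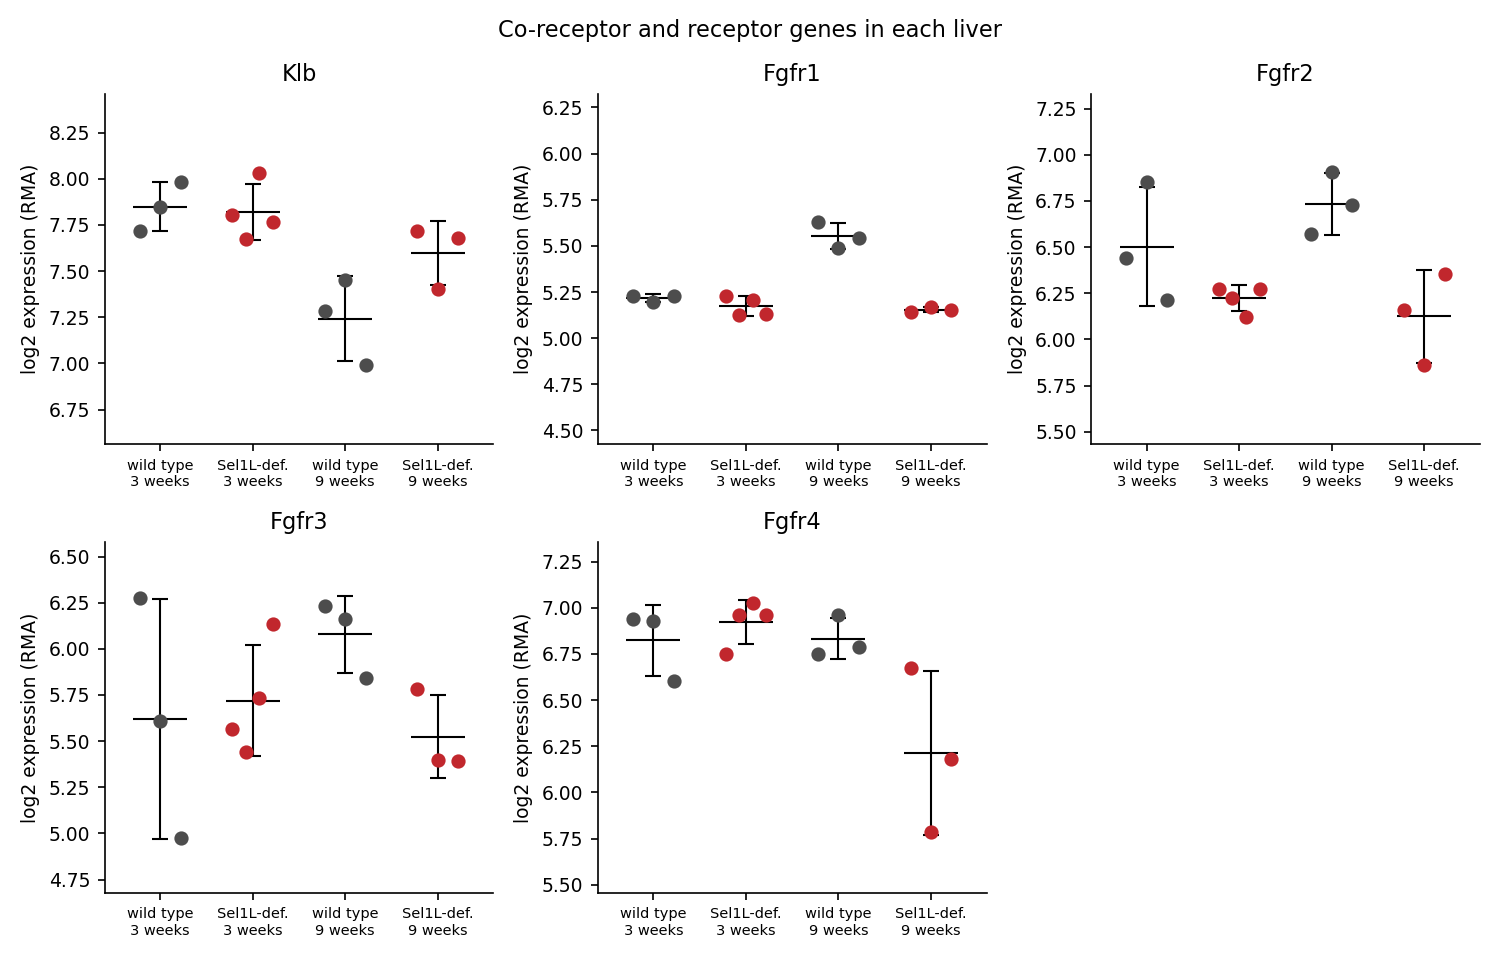
Klb and the 4 receptor genes in each liver (log2 expression, RMA), 1 panel per gene with wild type in grey and Sel1L-deficient in red; points are livers, lines are group means, whiskers are ± 1 SD, and the panels have separate axes whose levels should not be set against each other. At 9 weeks the red points lie below the grey points for all 4 receptor genes, while those of Klb overlap.

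By group mean the receptors share one feature, which is that the 9-week Sel1L-deficient group is lowest for all 4. The highest group is wild type at 9 weeks for Fgfr1 (5.55), Fgfr2 (6.73) and Fgfr3 (6.08), and Sel1L-deficient at 3 weeks for Fgfr4 (6.92). For Fgfr1 the 9-week wild-type group stands clear of the rest, and the other 3 groups differ by less than 0.1. Between the ends of the order, neighbouring groups of Fgfr2 and Fgfr3 overlap, and so do the upper 3 groups of Fgfr4.

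At 3 weeks 0 of the 6 members were called, against 0% of all 35556 features. An unadjusted p under 0.05 was reached by 0 of the 6 members and by 7.41% of features, and non-overlapping groups were found for 0 of the 6 and again 7.41%. At 9 weeks 1 of the 6 was called, against 1.52% of features (1.03% higher and 0.484% lower). An unadjusted p under 0.05 was reached by 5 of the 6, against 13.9% of features. Values of the genotypes did not overlap for 5 of the 6, against 18.4% of features, with 4 lower (8.52% of features) and 1 higher (9.89%). In the test of the difference between ages 0 of the 6 were called, against 0% of features, and 3 (Fgf21, Fgfr1 and Fgfr4) had an unadjusted p under 0.05, against 9.73%.

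With age in wild type 1 of the 6 was called, against 1.89% of features, and 3 did not overlap (Fgf21 and Klb lower, Fgfr1 higher), against 17.8%. With age in Sel1L-deficient liver 0 of the 6 were called, against 0.155% of features, 2 had an unadjusted p under 0.05 (10.1% of features), and Fgfr4 alone did not overlap (9.35%).

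**Figure D3:**
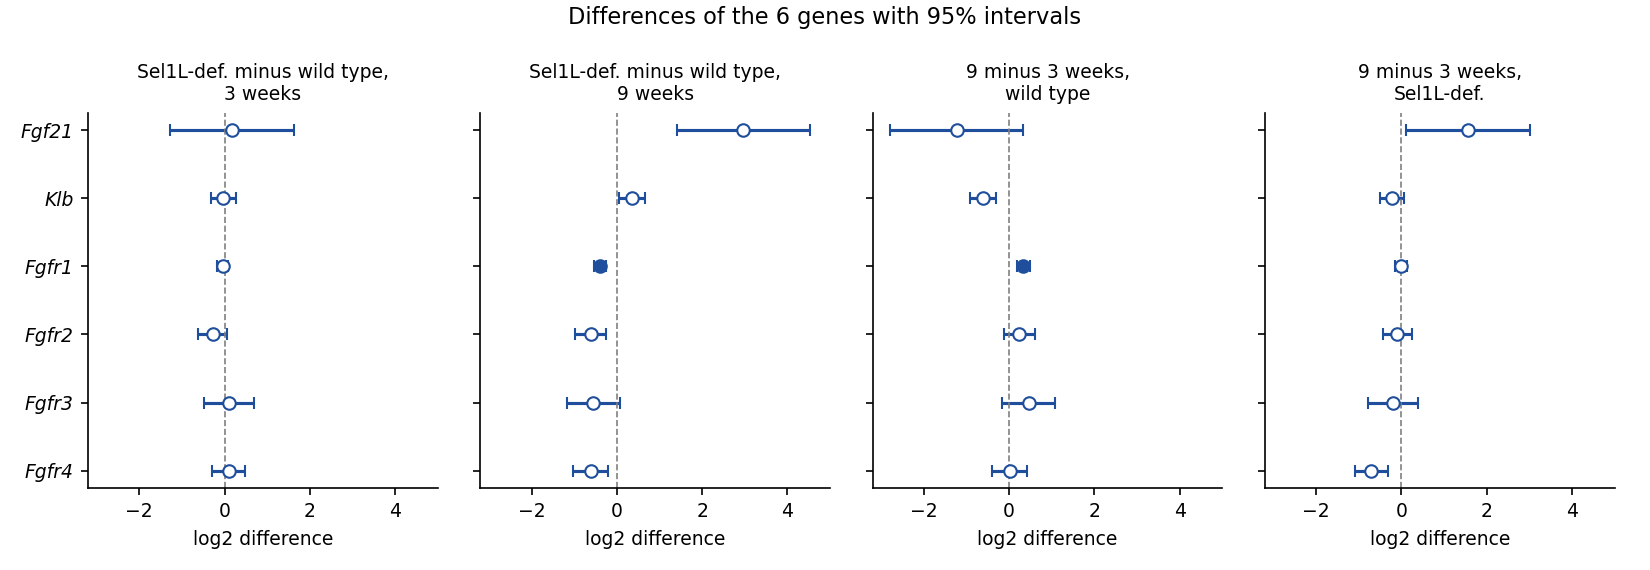
Differences of the 6 genes (log2, with 95% intervals from limma) in 4 comparisons: Sel1L-deficient minus wild type at 3 and at 9 weeks, and 9 minus 3 weeks in each genotype; filled points have an adjusted p under 0.05. Filled points are those of Fgfr1 in the 9-week genotype comparison (-0.40) and in the age comparison of wild type (0.33). The interval of Fgf21 is the widest in every panel.

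The livers also differed in markers of their cell types, and in whole-liver RNA fewer cells of a type and less RNA per cell cannot be told apart. Counts for the marker lists, and for the gene lists further on, are to be read beside the shares over all features. At 9 weeks 1.03% of features were called higher and 0.484% lower, and 13.9% had an unadjusted p under 0.05 in limma. At 3 weeks 0% were called and 7.41% had an unadjusted p under 0.05. At 9 weeks the hepatocyte markers were below 0 in 8 of 9 (median difference -0.15), and their mean level was 12.02 to 12.16 in Sel1L-deficient against 12.21 to 12.29 in wild-type livers. The 12 hepatic stellate cell markers were above 0 in 10 (median 0.19; 6.50 to 6.68 against 6.38 to 6.55), and 1 of them, the stellate transcription factor Lhx2, rose by 0.50 ± 0.10 (SE; adjusted p = 0.0302). Of the 8 Kupffer cell markers 5 were above 0 (median 0.04; 6.60 to 7.56 against 7.21 to 7.60), and 1 fell, the complement gene C6 (-1.84 ± 0.30, SE; adjusted p = 0.0191). The erythroid markers were below 0 in 5 of 5 (median -0.22), with a mean level of 4.31 to 4.63 in Sel1L-deficient against 4.98 to 5.25 in wild-type livers. Car1, the carbonic anhydrase gene of red blood cells, fell from 7.68, 7.76 and 7.65 to 6.14, 5.81 and 5.45 (-1.89 ± 0.32, SE; limma adjusted p = 0.0196). Of the other erythroid markers, Alas2 differed by -1.08 ± 0.33 without a call (SE; limma adjusted p = 0.154). Slc4a1, Klf1 and Epb42 differed by -0.22, -0.17 and -0.04, so the lower mean level rests mostly on Car1 and Alas2. The bile duct markers were mixed (4 of 6 below 0, median -0.18), as were the sinusoidal endothelial ones (6 of 10 below 0, median -0.03). Of the pancreatic acinar, adipocyte, lymphocyte and skeletal muscle markers none was called in limma (unadjusted p under 0.05 for 0 of 7, 0 of 6, 1 of 7 and 0 of 5), with medians of -0.15, 0.01, -0.11 and -0.03. The acinar markers, mostly under the array medians, were below 0 in 7 of 7 (2.44 to 2.55 against 2.62 to 2.69). A list near background thus shifted by about the same median as the hepatocyte markers. The unadjusted p in limma was under 0.05 for 4 of the 9 hepatocyte markers, none of them called, and for 0 of the 7 acinar ones. The part of these shifts in the receptor differences was not tested.

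At 3 weeks, where no member was called, markers of the non-parenchymal cells lay lower in Sel1L-deficient liver without a call (unadjusted p under 0.05 for 1 of 8 Kupffer cell, 2 of 12 stellate and 5 of 10 endothelial markers). So did the erythroid markers, below 0 in 4 of 5 without a call (median -0.41; 4.47 to 4.78 against 4.83 to 5.33; unadjusted p under 0.05 for 2), among them the red cell anion exchanger gene Slc4a1 (-1.59 ± 0.32, SE; adjusted p = 0.391). The Kupffer cell markers were below 0 in 8 of 8 (median -0.37; 7.05 to 7.44 against 7.54 to 7.65), the stellate ones in 11 of 12 (median -0.20; 6.51 to 6.71 against 6.68 to 6.90) and the sinusoidal endothelial ones in 8 of 10 (median -0.25; 7.84 to 8.12 against 8.15 to 8.20). The hepatocyte markers were above 0 in 7 of 9 (median 0.02). The median over all features was 0.00 at 3 weeks and -0.01 at 9 weeks. The part of these shifts in the 3-week values was not tested.

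In the list of endocrine FGFs and klothos, which holds Fgf21 and Klb, no gene was called by genotype (limma, unadjusted p under 0.05 for 0 of 5 at 3 weeks and 3 of 5 at 9 weeks). The list has 5 of 6 measured members, with a median difference of 0.10 at 3 weeks and 0.07 at 9 weeks, and Fgf21 and Klb alone had a mean above the array medians. Fgf15, the gut hormone that acts on the liver through FGFR4 and beta-klotho, lay under those medians and differed by -0.25 ± 0.11 at 9 weeks (SE; adjusted p = 0.344). Kl, which encodes alpha-klotho, differed by -0.17 ± 0.09 at 3 weeks (SE; adjusted p = 0.729). The 19 other FGF ligands had medians of -0.03 at both ages and no call (1 of 19 with an unadjusted p under 0.05 at each age), and 3 of the 19 lay above the array medians.

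Fgf1, a ligand for all FGF receptors, had the smallest p of these ligands at 9 weeks. Its 9-week mean was 8.77 in wild type, and the knockout livers stood at 8.09, 8.26 and 8.02, a difference of -0.65 ± 0.27 (SE; adjusted p = 0.303). At 3 weeks its Sel1L-deficient livers split as those of Fgf21 did, with replicates 1 and 2 at 8.76 and 8.55, replicates 3 and 4 at 7.62 and 7.76, and a wild-type range of 8.48 to 8.62. The same 2 livers were lowest for Fgf1 and for Fgf21.

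Of 17 receptors and receptor-binding partners, 2 fell and 0 rose at 9 weeks, against 0.484% and 1.03% of all features. The median was -0.07 against -0.01 over all features, and 1 of the 2 that fell was the member Fgfr1. The other was Gpc4, a cell-surface glypican that carries heparan sulfate. Gpc4 stood at 8.04, 8.19 and 8.17 in wild type, against 7.83, 7.53 and 7.56 in knockout liver (-0.49 ± 0.09, SE; limma adjusted p = 0.0295). The related Gpc1 went the other way without a call, at 4.33, 3.99 and 4.96 against 4.86, 5.77 and 6.23 (1.19 ± 0.32, SE; adjusted p = 0.101), and its groups overlapped. At 3 weeks none of the 17 was called (median -0.00, unadjusted p under 0.05 for 1).

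Downstream of the receptor, 20 of 26 genes of the adaptors and the RAS-ERK cascade were measured, with medians of -0.02 and -0.05 at 3 and 9 weeks. None was called by genotype (limma, unadjusted p under 0.05 for 0 and 2 of 20). At 9 weeks 14 of the 20 were below 0, and their mean level was 6.78 to 6.85 in Sel1L-deficient against 6.88 to 6.94 in wild-type livers. Plcg1, the phospholipase that docks on activated FGF receptors, came closest, with a 9-week mean of 7.03 ± 0.035 (SD, n = 3) in wild type against 6.73, 6.24 and 6.53 in the knockout livers (-0.53 ± 0.13, SE; adjusted p = 0.0762). The ERK-responsive and feedback genes, 20 of 21 measured, also had no call (unadjusted p under 0.05 for 1 of 20 at 3 weeks and 4 at 9 weeks), with medians of -0.10 and -0.16. At 9 weeks 16 of the 20 were below 0, and their mean level was 5.08 to 5.12 in Sel1L-deficient against 5.21 to 5.30 in wild-type livers.

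Spry4, a feedback inhibitor of receptor tyrosine kinases, stood at 6.16, 5.44 and 6.14 in wild type and at 5.37, 4.91 and 4.78 in knockout livers at 9 weeks (-0.89 ± 0.25, SE; adjusted p = 0.112). Dusp5, a nuclear ERK phosphatase, lay the other way (0.35 ± 0.11, SE; adjusted p = 0.142), and Etv4, an ETS factor downstream of FGF signalling, differed by -0.24 ± 0.09 (SE; adjusted p = 0.267). Egr1, an immediate early gene, differed by 0.93 ± 0.32 at 3 weeks (SE; adjusted p = 0.573), and its groups overlapped.

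Of 23 regulators of Fgf21 transcription, 20 were measured and none was called by genotype, with medians of 0.02 at 3 weeks and -0.07 at 9 weeks (unadjusted p under 0.05 for 0 and 6 of 20). Creb3l3, the gene of CREBH, stood at 8.59, 8.68 and 8.99 in wild type and 8.62, 8.85 and 8.94 in knockout livers at 9 weeks, so that the groups overlapped while those of Fgf21 did not. Ppara, the nuclear receptor of the fasting response, was also within the wild-type range in all 3 Sel1L-deficient livers at 9 weeks, at 9.89, 9.69 and 9.72 against 9.86, 9.64 and 10.08. Both genes were lower in replicates 3 and 4 than in all wild-type livers at 3 weeks, the livers with the lowest Fgf21 (Creb3l3 8.27 and 8.49 against 8.54 to 8.90, Ppara 8.98 and 9.32 against 9.72 to 10.01). These 2 genes and Atf4 were looked at for their known role, outside the rule for named genes.

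The regulators nearest to a call at 9 weeks were Mlxipl, Nr3c1 and Eif2ak3. Mlxipl encodes ChREBP, the sugar-sensing activator of Fgf21, and stood at 9.56, 9.89 and 9.53 against 9.25, 8.68 and 8.95 (-0.70 ± 0.16, SE; adjusted p = 0.0577). Nr3c1, the glucocorticoid receptor, stood at 7.33, 7.15 and 7.12 against 6.83, 6.69 and 6.82 (-0.42 ± 0.10, SE; adjusted p = 0.0585). Eif2ak3 encodes PERK, the kinase that raises ATF4 translation, and stood at 6.12, 5.77 and 6.54 against 6.60, 7.39 and 7.59 (1.05 ± 0.26, SE; adjusted p = 0.0749). Atf4 itself was higher in each Sel1L-deficient liver, at 7.02, 7.15 and 7.35 against 6.63, 6.81 and 6.77.

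The stress hormone and ATF4-type genes were the list with the largest median at 9 weeks, and the list with most calls. Of 14 measured, 4 rose and 0 fell, against 1.03% and 0.484% of all features. Of the 14, 12 lay above 0, with a median of 0.96 against -0.01 over all features. The stress-response regulator Nupr1 rose by 3.56 ± 0.41 (SE; limma adjusted p = 0.00756). Wild-type Nupr1 read 5.74, 5.68 and 5.10 and knockout Nupr1 8.43, 9.08 and 9.70. The pseudokinase gene Trib3 rose by 1.99 ± 0.35 (SE; adjusted p = 0.0249), the lipoprotein receptor gene Vldlr by 1.39 ± 0.22 (SE; adjusted p = 0.0161) and the mTOR inhibitor gene Ddit4 by 1.39 ± 0.29 (SE; adjusted p = 0.0449). Of these 4, Nupr1 and Vldlr have the element TTGCATCA printed above, as Fgf21 does, and Trib3 and Ddit4 had no match in their windows. Atf3, Chac1, Asns and Slc7a11 carry the element and were not called.

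At 3 weeks some stress genes were high in the livers with the least Fgf21 and others were not. Nupr1 was above all wild-type livers (mean 5.84 ± 0.05, SD) in all 4 Sel1L-deficient livers, at 6.41, 7.86, 8.06 and 7.27. Trib3 exceeded wild type by 0.28, 0.85, 1.74 and 1.41 in replicates 1 to 4, and Vldlr by 0.38, 0.40, 0.75 and 0.97. Both were thus highest in replicates 3 and 4, where Fgf21 was lowest. Atf3, the gene of a stress-induced transcription factor, ran as Fgf21 did, at 0.06, 1.13, -0.10 and -0.44 from the wild-type mean. The mean level of the whole list stood 0.09, 0.35, 0.18 and 0.07 above wild type in replicates 1 to 4, highest and lowest in the same livers as Fgf21. The list had a median difference of -0.05 at this age, and none of its members was called (unadjusted p under 0.05 for 3 of 14).

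Ddit4 was also higher in replicates 1 and 2 than in replicates 3 and 4, with differences of 0.25, 0.46, -0.56 and -0.16 from the wild-type mean. Sel1l was also highest in the Sel1L-deficient livers with the most Fgf21, at 8.42 and 7.90 in replicates 1 and 2 against 7.20 and 7.10 in replicates 3 and 4. Pdk4, a fasting-induced kinase gene, differed from the wild-type mean by -0.91, 0.84, -2.73 and -2.97. Wild-type Pdk4 itself ran from 6.76 to 9.68 at this age while wild-type Fgf21 varied by 0.13, and the part of feeding state or residual Sel1l in the split of Fgf21 was not tested.

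**Figure D4:**
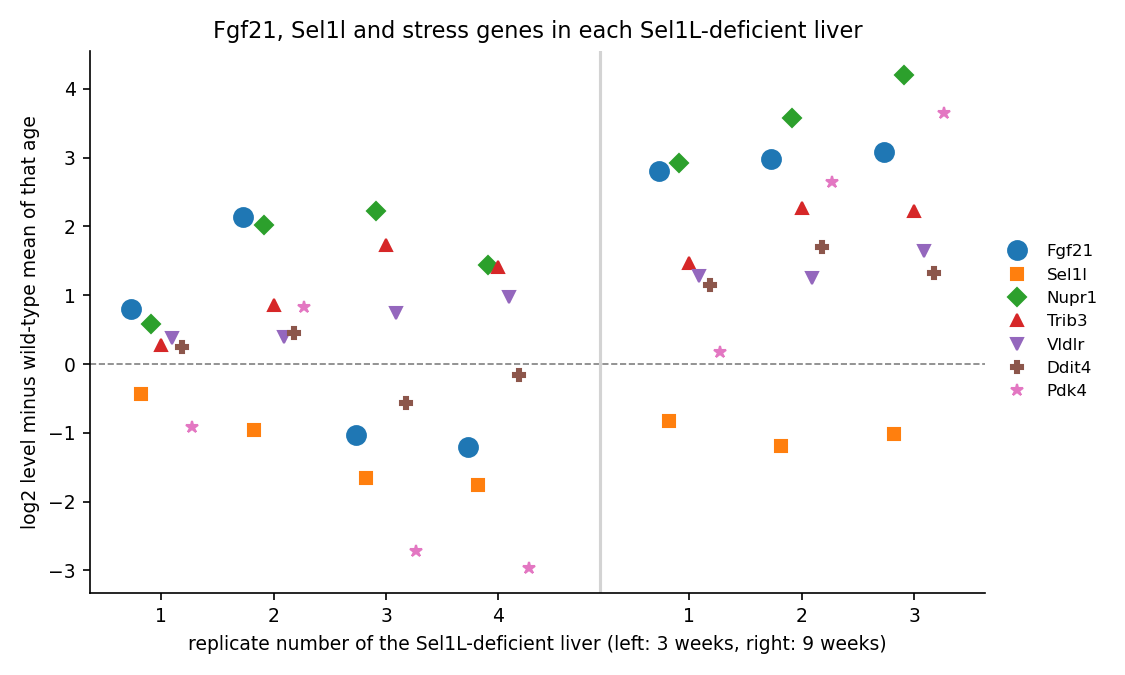
Level minus the wild-type mean of the same age (log2) for Fgf21, Sel1l, 4 stress genes and Pdk4 in each Sel1L-deficient liver, with replicates at 3 weeks on the left and at 9 weeks on the right; points are single livers. At 3 weeks Fgf21 is above 0 in replicates 1 and 2 and below 0 in replicates 3 and 4 while Nupr1 is above 0 in all 4, and at 9 weeks Fgf21 and the 4 stress genes are above 0 in all 3 livers.

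Among the targets of the FGF15-FGFR4-beta-klotho axis, 1 of 8 fell at 9 weeks and 0 rose (median -0.18; 0.23 at 3 weeks with no call and an unadjusted p under 0.05 for 0 of 8). This was Cyp7b1, an enzyme of the alternative bile acid pathway, at 8.81, 7.76 and 10.33 in wild type, against 6.81, 6.06 and 5.74 in knockout liver (-2.76 ± 0.54, SE; limma adjusted p = 0.0336). Slc10a1, the bile acid importer of hepatocytes, differed by -0.63 ± 0.16 (SE; adjusted p = 0.0761), with 11.96, 11.93 and 11.85 against 11.74, 11.05 and 11.06. No other member of this list passed the threshold in a genotype comparison. Among them Cyp7a1 stood at 8.57, 8.68 and 8.66 in wild type and at 10.69, 8.45 and 8.35 in knockout livers at 9 weeks, so its groups overlapped.

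Of the fasting and ketogenic genes, 10 of 13 were measured, and 1 fell at 9 weeks. This was Igf1, the growth hormone-driven growth factor, which stood at 10.07, 10.08 and 10.05 in wild type and at 9.62, 9.28 and 9.70 in knockout livers (-0.53 ± 0.10, SE; limma adjusted p = 0.0295). The list's median was 0.10 at 9 weeks. At 3 weeks its median was -0.40 and all 10 members lay below 0 without a call (unadjusted p under 0.05 for 2). In the 4 Sel1L-deficient livers of that age the mean level of the list stood -0.25, 0.09, -1.01 and -0.85 from wild type, lowest in replicates 3 and 4, as Fgf21 was.

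**Figure D5:**
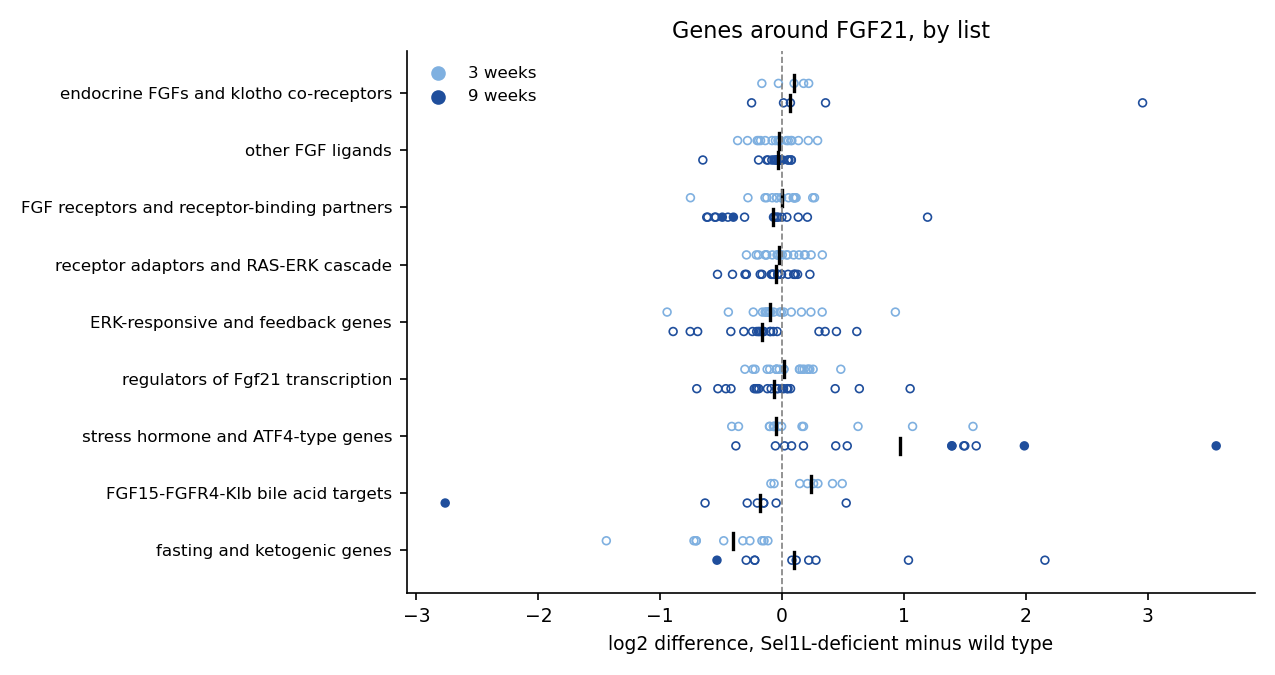
Differences between Sel1L-deficient and wild-type liver (log2) of each measured gene in 9 lists around FGF21, at 3 weeks (light) and 9 weeks (dark); each point is a gene, filled points have an adjusted p under 0.05 in limma and black bars are list medians. The stress list has the highest median at 9 weeks (0.96) with 4 filled points, and the fasting list the lowest at 3 weeks (-0.40) with none.

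The genes whose level followed Fgf21 most closely over the 13 livers were ranked by Pearson correlation among 16514 genes. These are descriptions over livers that share 4 groups. The closest 5 were Zfp689 (r = 0.918, rho = 0.945), Ttc39a (r = 0.912, rho = 0.956), Txlna (r = 0.911, rho = 0.918), Bsdc1 (r = 0.910, rho = 0.912) and Usp36 (r = 0.906, rho = 0.863). They were followed by Pole4 (0.872), Max (0.871), which encodes the partner of MYC, and Fam120b (0.871). The lowest were Sema4g (-0.907), Arhgap29 (-0.883), S100a1 (-0.882) and Grik5 (-0.877). Without the 2 livers farthest from the median of Fgf21 (replicate 2 of the 3-week Sel1L-deficient and replicate 1 of the 9-week wild-type livers) r was between 0.825 and 0.968 for the first 8 and between -0.919 and -0.832 for the last 4. The genes had been picked as the extremes over all 13 livers, and 11 of these remain, so this is no independent check.

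Ttc39a ran from 4.82 to 5.44 in the 3-week Sel1L-deficient livers, on both sides of its wild-type range of 5.17 to 5.24. Of the stress genes Ddit4 was nearest (r = 0.860, with 10 genes higher), while Nupr1 (0.662), Vldlr (0.475) and Trib3 (0.469) were farther off. The receptors lay on the negative side (Fgfr1 -0.656, Fgfr3 -0.606, Fgfr4 -0.543 and Fgfr2 -0.512), and Klb was near 0 (0.145).

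Deviations from the group means, which remove the differences between groups, gave another order. Timm22 (r = 0.955), Mtfr2 (0.935), Itgb1bp2 (0.920), Ccdc163 (0.919), Ets1 (0.914), Dnajb1 (0.913), Alpl (0.905) and Slc25a47 (0.902) were highest. Since 89.8% of the spread of Fgf21 within groups comes from 4 livers, these values rest mainly on the 3-week Sel1L-deficient group. On this measure the stress genes lay on both sides of 0. Nupr1 was at -0.118, Trib3 at -0.525, Vldlr at -0.578 and Slc7a11 at -0.616, against 0.858 for Cebpb, 0.650 for Ddit4, 0.596 for Atf3, 0.589 for Chac1 and 0.576 for Sesn2. Sel1l was at 0.680. The regulators of Fgf21 transcription also lay on both sides of 0, with Ppara at 0.817, Creb3l3 at 0.643 and Atf4 at 0.494 against -0.501 for Nr3c1 and -0.503 for Stat5b. The fasting and ketogenic genes ran from -0.058 (Socs2) to 0.813 (G6pc). Among the members, Fgfr1 was at -0.223, Fgfr2 at 0.118, Fgfr3 at -0.439, Fgfr4 at -0.118 and Klb at -0.459.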

How the data were processed

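The deposited table holds log2 values made with RMA, per the submitters' processing notes; software, version and probe definition are not given in the sources used here. RMA brings the arrays to a common distribution, so a shift of most genes would be removed. No detection calls came with it, so a low level may be background. Features were named from the platform annotation, and no coordinates are given for them because no build is named for the array.

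Group means were fitted over all 13 livers with limma 3.58.1 in R 4.3.3 (lmFit, eBayes, two-sided) and adjusted by Benjamini-Hochberg over 35556 features; adjusted p under 0.05 counted as called. All groups share 1 estimate of the spread, and precision is limited by how few arrays there are. The labels describe separate mice without litter or hybridisation date.

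The members, 9 pathway lists (133 of 149 genes matched) and 10 marker lists (75 of 87) were chosen with earlier results of these data known. Named were the members, Sel1l, list genes called by genotype, otherwise up to 4 per list with the smallest p, and the 8 highest and 4 lowest correlations with Fgf21; exceptions, such as Pdk4, were chosen after their values were seen. Alternatives covered the tested features, array scaling, blocks, prior, array weights, groups in the fit and single livers left out. The script was tested on simulated data.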

Additional observations from a re-analysis of the deposited data

How the results depend on the processing

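Fgf21 kept its direction at 9 weeks in every alternative run. Its call appeared with 1-symbol features (2.96, adjusted p = 0.0309), features above the array median (2.96, 0.0418) or array weights (3.05, 0.0432). With 1 liver left out, its difference ranged from -0.48 to 0.64 at 3 weeks, 2.65 to 3.28 at 9 weeks (adjusted p 0.0260 to 0.212, called in 1 of 13), 2.32 to 3.43 between ages, -1.55 to -0.92 for age in wild type and 1.10 to 2.21 in Sel1L-deficient liver. Member calls at 9 weeks numbered 2 under the 3 settings just named, and 0 with the replicate block or with the compared groups alone (0 to 2 with 1 liver left out). For age in wild type they numbered 2 with 1-symbol or above-median features, and 0 with the replicate block, the array code as a block or the compared groups alone (0 to 1), and in Sel1L-deficient liver 0 to 1.

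Called features at 9 weeks were 539, against 184 with the replicate block, 294 with the array code as a block, 1106 with array weights and 1 with the compared groups alone (18 to 1178 with 1 liver left out). At 3 weeks they were 2 with 1-symbol features (0 to 1), and between ages 15 (0 to 36). For age in wild type they were 672, against 440 with the replicate block and 255 with the compared groups alone (296 to 639). For age in Sel1L-deficient liver they were 55, against 144 (1-symbol), 99 (above median), 35 (median centring), 12 (replicate block), 18 (array code as a block), 151 (array weights) and 9 (compared groups alone), and 6 to 210 with 1 liver left out. Why these counts move was not tested, except that fewer features or livers enter where the setting says so.

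The call on Fgfr1 at 9 weeks was lost with the replicate block (adjusted p = 0.0641) and the compared groups alone (0.172). Its age call in wild type was lost with the replicate block (0.0766), the array code as a block (0.0573), the trended prior (0.0724), the compared groups alone (0.185) and without each wild-type liver (0.0580 to 0.0922). Differences near 0 changed sign: Fgfr3 at 3 weeks with the replicate block (-0.039), and with 1 liver left out Klb (-0.101 to 0.037), Fgfr3 (-0.22 to 0.43) and Fgfr4 (-0.012 to 0.159) at 3 weeks, Fgfr4 for age in wild type (-0.103 to 0.067), and Fgfr1 (-0.035 to 3.63e-05) and Fgfr2 (-0.214 to 0.035) for age in Sel1L-deficient liver. Livers with the same replicate number did not deviate together (correlations of deviations 0.0210, 0.0581 and 0.00279 at 3 weeks, 0.0713, -0.0108 and 0.0298 at 9 weeks), so the numbers were not taken to pair them.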

Other observations

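Wild-type liver changed in several genes around FGF21 between 3 and 9 weeks. Gpc3, a glypican of fetal and young liver, fell by 3.42 ± 0.51 on the log2 scale (SE; limma adjusted p = 0.00803), from 6.87, 7.36 and 7.13 to 3.91, 3.46 and 3.72. In the 3-week Sel1L-deficient livers it stood at 7.39, 7.20, 5.10 and 5.77, so that replicates 3 and 4, which had the least Fgf21, differed from the wild-type mean by -2.02 and -1.35. Asns, the ATF4-type asparagine synthetase gene, fell by 2.39 ± 0.40 with age (SE; adjusted p = 0.0141). Cyp7b1 rose by 3.84 ± 0.54 (SE; adjusted p = 0.00541), Cyp27a1, which starts the alternative bile acid pathway, by 0.70 ± 0.15 (SE; adjusted p = 0.0446) and the thyroid hormone receptor gene Thrb by 0.67 ± 0.14 (SE; adjusted p = 0.0418). Cell type markers moved as well. With age in wild type 3 of 10 sinusoidal endothelial and 2 of 12 hepatic stellate markers fell and 0 rose (medians -0.28 and -0.33). Over all features 1.89% were called in this comparison. Of 5 erythroid markers 1 rose, Car1 (2.02 ± 0.32, SE; limma adjusted p = 0.00997), and 1 fell, Slc4a1 (-1.90 ± 0.34, SE; limma adjusted p = 0.0197). Of 8 Kupffer cell markers 1 rose and 1 fell (median -0.35), and of 9 hepatocyte markers 0 were called, with an unadjusted p under 0.05 for 0 (limma, median -0.01). Their part in these values was not tested.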
